A study of Mus musculus with 6 samples.

Results

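Bile acids are made from cholesterol in hepatocytes by 2 linked routes, and this account concerns the 10 genes of that pathway named by symbol (Cyp7a1, Cyp7b1, Cyp8b1, Cyp27a1, Cyp2c70, Baat, Slc27a5, Hsd3b7, Amacr and Acox2) among 28450 genes of the deposited table. The 10 members were chosen by name and function, with earlier results of these data known, and each symbol matched 1 row. RNA from livers of 6 males, 12 weeks old and fed a normal diet, was sequenced after selection of messenger RNA, 1 library per mouse. The 3 control mice are labelled wild type, and the 3 others carry a knockout of Acsm3, a mitochondrial medium-chain acyl-CoA synthetase. The sources used here do not give the strain, the deleted part of Acsm3 or whether the controls were littermates. The comparison asks how hepatic expression differs without Acsm3.

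In the classical route Cyp7a1 adds the first hydroxyl group to cholesterol, Hsd3b7 oxidises the product, and Cyp8b1 decides whether cholic acid is formed. In the alternative route the mitochondrial P450 Cyp27a1 acts on the sterol side chain first, and Cyp7b1 then hydroxylates the ring. Both routes go on in peroxisomes, where Amacr and Acox2 help shorten the side chain. Slc27a5, a membrane enzyme, joins free bile acids to coenzyme A, and Baat transfers activated bile acids to taurine or glycine. Cyp2c70 is the mouse enzyme that turns chenodeoxycholic acid into muricholic acids.

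Values are FPKM, fragments per kilobase of gene, scaled to sequencing depth, so levels of different genes can be compared per length. Fold changes are log2 of FPKM + 1, knockout minus control, ± the standard error from limma, a linear model fitted to the 10996 genes whose mean over the 6 mice reached 1 FPKM. The threshold was a Benjamini-Hochberg adjusted p of 0.05 over those genes. This scale understates changes of genes with low FPKM. The steps between low FPKM values implied 15400000 to 16300000 fragments per library. Acsm3 itself read 33.2, 34.4 and 32.2 FPKM in controls 1, 2 and 3, against 0.668, 2.92 and 1.08 FPKM in knockouts 1, 2 and 3. The liver label was borne out by albumin (Alb), which ranged from 21103.5 to 37369 FPKM over the 6 libraries. Of 12 hepatocyte markers 1 was higher and 3 were lower in the knockouts, and their summed level was 47229 to 56182 FPKM in controls and 36339 to 39535 FPKM in knockouts. Markers of other cells also moved with genotype, where 13.9% of all tested genes were called higher and 2.61% lower. Of 9 stellate and fibroblast markers 6 were higher (summed level 84.6 to 90.6 FPKM in controls and 127 to 159 FPKM in knockouts). Of 10 macrophage markers 4 were higher and 1 was lower (219 to 333 against 353 to 662 FPKM). Of 8 endothelial markers 3 were higher (62.9 to 73.5 against 82.6 to 109 FPKM). The 8 bile duct markers summed to 18.8 to 20.8 FPKM in controls and 38.4 to 71.9 FPKM in knockouts, but most of that sum was Spp1. Spp1 was at 12.5, 14.8 and 13.7 FPKM in controls 1, 2 and 3, against 40.9, 64.0 and 32.1 FPKM in knockouts 1, 2 and 3. Of 2 tested markers it was the 1 called higher (log2 1.61 ± 0.23, limma adjusted p = 0.0127). Krt19, Krt7 and Cftr were below 1 FPKM in every mouse. Of 4 tested neutrophil markers 3 were higher (summed level 1.89 to 3.13 against 4.23 to 11.3 FPKM). These 3, Retnlg, S100a8 and Csf3r, had means of 0.172, 0.48 and 0.723 FPKM in controls and 1.83, 1.57 and 1.8 FPKM in knockouts. They reached the filter only through the knockouts, so entry to the test favoured a rise. The same held for the stellate marker Col1a1 and the adipocyte marker Cfd (control means 0.41 and 0.16 FPKM). Without knockout 1 or knockout 2 only 2 neutrophil markers were tested. Of 4 tested adipocyte markers 3 were higher and 1, Pck1, was lower, while Adipoq, Lep, Plin1 and Retn were below 1 FPKM in every mouse. Pck1, at a mean of 1118 FPKM in controls, is also counted among the periportal hepatocyte genes below. No hepatocyte marker was called, and no macrophage, endothelial or neutrophil marker was called higher, without any 1 control, without knockout 1 or without knockout 2. Without knockout 3, 7 macrophage, 5 endothelial and 4 neutrophil markers were higher. With 1 mouse left out, 4 to 7 stellate markers and 2 to 3 adipocyte markers were higher, and Spp1 did not pass without control 3 (limma, adjusted p = 0.0517). In whole liver, fewer cells of a type and less RNA per cell cannot be told apart, and the part of these shifts in the results on bile acid genes was not tested.

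Of the 10 members 9 passed the filter on low values, and 3 of these were higher in the knockouts: Cyp2c70, Cyp27a1 and Acox2. None was lower. An unadjusted limma p under 0.05 was found for 4 of the 9, where 35.3% of all tested genes had one. Over all tested genes 13.9% were called higher and 2.61% lower, and these shares are the background for the counts of gene lists below. The members were chosen with earlier results of these data known, so a share called higher above 13.9% cannot be read as an excess. The count of falls, 0 of 9, was near the background. Groups did not overlap in 4 tested members, each with the knockouts higher, where 33.9% of all tested genes had such a pattern, and in no member with the knockouts lower (7.91% of all tested genes, and 41.8% in either direction). The median log2 fold change was -0.08 over the tested members and 0.13 over all tested genes. After scaling by median ratios the median of all tested genes was -0.04, 1 member was called higher and 0 lower, and the calls over all genes went from 1532 higher and 287 lower to 725 and 919. Of the 3 members called, none remained called without control 2, without control 3, without knockout 1 or without knockout 2. Without control 1 all 3 passed, and without knockout 3 there were 2. With no filter on low values Acox2 was the 1 member called, and with median-ratio scaling Cyp2c70.

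**Figure D1:**
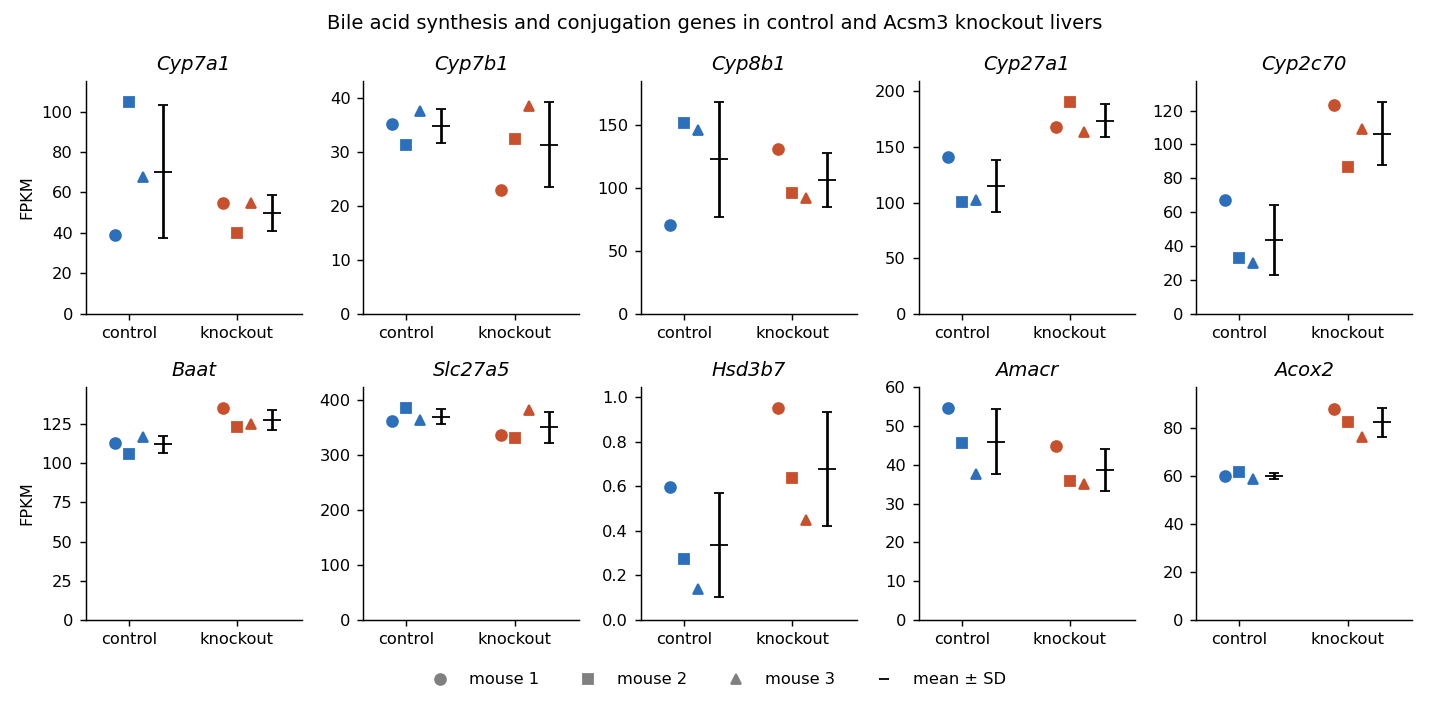
FPKM of the 10 bile acid genes in each mouse (symbols), with the mean ± SD of 3 mice per group, control in blue and knockout in red; each panel has its own axis from 0. Knockout values lie wholly above control values for Cyp27a1, Cyp2c70, Baat and Acox2, and control 1 sits apart from controls 2 and 3 for Cyp8b1 and Cyp2c70.

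The proximal promoters of Cyp2c70, which had the largest fold change of the members, and of Cyp8b1, which did not pass, share a sequence and are shown for that reason. Of the members, 5 were found in the RefSeq promoter table (GRCm38.p6), from which the 250 bases before each start site were read and searched, 5′ to 3′ on the gene's own strand. The GENCODE M21 gene of Cyp2c70 starts farther upstream than the RefSeq start site, so the last 47 bases of its window lie inside that gene and are not shown. Positions are counted from the RefSeq start site. Capitals mark matches to the motifs searched.

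Cyp2c70, chr19:40187334-40187536, minus strand: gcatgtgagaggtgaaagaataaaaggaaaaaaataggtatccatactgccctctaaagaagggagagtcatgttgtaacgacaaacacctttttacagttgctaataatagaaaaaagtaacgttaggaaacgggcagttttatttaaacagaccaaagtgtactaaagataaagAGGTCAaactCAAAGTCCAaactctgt

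Cyp8b1, chr9:121916306-121916555, minus strand: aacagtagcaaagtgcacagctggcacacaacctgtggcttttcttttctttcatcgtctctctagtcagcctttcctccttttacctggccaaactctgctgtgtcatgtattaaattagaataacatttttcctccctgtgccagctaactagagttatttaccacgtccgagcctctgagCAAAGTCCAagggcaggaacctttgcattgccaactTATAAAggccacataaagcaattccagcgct

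The shared letters CAAAGTCCA, a recognition sequence of the hepatocyte nuclear receptor HNF4A, stood at -64 to -56 from the RefSeq start site in Cyp2c70 and at -67 to -59 in Cyp8b1. Counted from the GENCODE start of Cyp2c70, 47 bases farther upstream, its match would lie nearer the start. Searched on both strands, the shared letters occurred in 126 of 32851 promoters of the same length (0.384%). The Cyp2c70 window also held the nuclear receptor half-site AGGTCA at -74 to -69, which 14.0% of promoters hold on either strand. The Cyp8b1 window held TATAAA at -31 to -26, found on the gene strand of 7.59% of promoters. The other motifs searched on both strands were CAAGGTCA, which contains AGGTCA (1.33% of promoters), TTATGTAA or TTACGTAA (0.931%) and TTGCNNAA (9.56%). These had no match in either window. In the windows of Cyp27a1, Hsd3b7 and the upstream start of Acox2 none of these letters were found, and the downstream start of Acox2 held 1 match to TTGCNNAA at -146 to -139. Both Acox2 windows lie inside the GENCODE M21 gene of Acox2, which starts farther upstream, as do the last bases of the Hsd3b7 window inside its gene. A match is a description of the letters, not of a bound factor.

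Cyp7a1 (chromosome 4, 6265612 to 6275633, minus strand, GRCm38), which encodes the rate-limiting enzyme of the classical route, was at 38.7, 104.7 and 67.4 FPKM in controls 1, 2 and 3. It was at 54.8, 39.7 and 54.9 FPKM in knockouts 1, 2 and 3. The groups overlapped, and the highest control was 2.70 times the lowest, whereas the knockouts spanned 1.38 times. The log2 fold change was -0.39 ± 0.34 with a 95% interval from -1.20 to 0.42 (limma, adjusted p = 0.447). On the deposited scale that interval runs from a fold of 0.435 to one of 1.33. The estimate was -0.76 without control 1 and -0.05 without control 2, and it did not pass in either case (limma, adjusted p = 0.093 and 0.913).

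Cyp8b1 (chromosome 9, 121914356 to 121916305, minus strand), the hydroxylase for cholic acid, was at 70.2, 152 and 146 FPKM in controls 1, 2 and 3. In knockouts 1, 2 and 3 it was at 131, 95.6 and 92.4 FPKM, inside the range of the controls. As with Cyp7a1, control 1 had the lowest level of the 6 mice. The log2 fold change was -0.14 ± 0.31 (95% interval -0.87 to 0.59, limma adjusted p = 0.774), and it became 0.05 without control 2, 0.02 without control 3 and -0.50 without control 1.

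Hsd3b7 (chromosome 7, 127800604 to 127803802, plus strand) was listed at 0.597, 0.274 and 0.138 FPKM in the controls and at 0.95, 0.637 and 0.447 FPKM in the knockouts. It was the 1 member below the filter. The highest control lay within the range of the knockouts. Its values rested on 6 to 41 fragments per library, against 774 to 14971 fragments for the other 9 members. In the GENCODE M21 annotation 1717 bp of its exons are shared with the gene Gm49388 on the same strand, which is not used here, and 1729 bp with 9430064I24Rik on the opposite strand. No source used here tells how shared fragments were counted, and the level of Hsd3b7 is uncertain.

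Of the 2 members named above for the alternative route, 1 passed the test, and how far either route was used was not tested. Cyp27a1 (chromosome 1, 74713574 to 74737892, plus strand) was at 141, 101 and 102 FPKM in controls 1, 2 and 3, against 168, 190 and 163 FPKM in knockouts 1, 2 and 3. All knockouts lay above all controls, with control 1 the nearest to them. The rise was 0.61 ± 0.15 (95% interval 0.26 to 0.96, limma adjusted p = 0.0373), and the group means differed 1.51-fold (115 ± 23.1 and 174 ± 14.5 FPKM, SD, n = 3). It did not pass after median-ratio scaling (0.40, limma adjusted p = 0.0972) or with no filter (limma adjusted p = 0.0854).

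Cyp7b1 (chromosome 3, 18071950 to 18243338, minus strand), which hydroxylates oxysterols, was at 35.2, 31.3 and 37.6 FPKM in the controls. The knockouts were at 23.0, 32.5 and 38.6 FPKM, so that knockout 1 was the lowest and knockout 3 the highest of all 6 mice. The log2 fold change was -0.17 ± 0.18 (95% interval -0.60 to 0.27, limma adjusted p = 0.546), and without knockout 1 it was 0.03.

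Cyp2c70 (chromosome 19, 40153353 to 40187333, minus strand) showed the largest rise of the members. Controls 1, 2 and 3 held 67.2, 33.0 and 29.8 FPKM of it, against 124, 86.5 and 109 FPKM in knockouts 1, 2 and 3. The lowest knockout lay above the highest control, control 1, which itself stood above controls 2 and 3. The log2 fold change was 1.36 ± 0.31 (95% interval 0.63 to 2.08, limma adjusted p = 0.0324), and the means of 43.3 ± 20.7 and 106 ± 18.6 FPKM (SD, n = 3) differed 2.45-fold. With 1 mouse left out the estimate ran from 1.14, without control 3, to 1.71, without control 1. It did not pass in 5 of these 6 fits (limma, adjusted p up to 0.102), nor with no filter (limma, adjusted p = 0.0802).

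Cyp2c70 belongs to a large gene family with close paralogs, and how fragments were divided among them is uncertain. Of 11 tested paralogs Cyp2c55 (1.31 ± 0.32) and Cyp2c38 (0.42 ± 0.11) were higher and Cyp2c68 (-0.54 ± 0.14) was lower (limma, adjusted p from 0.0385 to 0.0467). Cyp2c55 was near the floor, at 0.337, 0.222 and 0.16 FPKM in controls 1, 2 and 3. At 1.29, 1.38 and 4.31 FPKM in knockouts 1, 2 and 3, it reached the filter on low values only through the knockouts. Cyp2c38 and Cyp2c68 lost their calls with any 1 mouse left out, and Cyp2c55 in all 5 such fits in which it passed the filter (limma, adjusted p up to 0.132). After median-ratio scaling 0 paralogs were higher and 1 was lower. The median over the paralogs was -0.21, where that over all tested genes was 0.13.

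Of the side-chain enzymes, Acox2 (chromosome 14, 8225511 to 8259353, minus strand), the branched-chain acyl-CoA oxidase, was at 59.97, 61.5 and 58.95 FPKM in controls 1, 2 and 3, against 88.1, 82.8 and 76.4 FPKM in knockouts 1, 2 and 3. Every knockout exceeded every control. The rise was 0.45 ± 0.08 (95% interval 0.26 to 0.63, limma adjusted p = 0.0179), from 60.1 ± 1.28 to 82.4 ± 5.88 FPKM (SD, n = 3), a fold of 1.37. After median-ratio scaling the estimate was 0.23 and did not pass (limma, adjusted p = 0.0805).

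Amacr (chromosome 15, 10981756 to 10996626, plus strand), the racemase that prepares the side chain for Acox2, did not pass the test. Its level was 54.6, 45.7 and 37.7 FPKM in the controls and 44.8, 35.9 and 35.0 FPKM in the knockouts. The groups overlapped, and the log2 fold change was -0.24 ± 0.16 (95% interval -0.61 to 0.13, limma adjusted p = 0.309). After median-ratio scaling the estimate was -0.45 and fell just short of the threshold (limma, adjusted p = 0.0529).

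Of the conjugating pair, Slc27a5 (chromosome 7, 12988346 to 12998192, minus strand) was the most abundant member per length in every mouse. It was at 361, 384 and 362 FPKM in the controls and at 336, 331 and 382 FPKM in the knockouts. Knockouts 1 and 2 lay below all controls and knockout 3 among them. The log2 fold change was -0.08 ± 0.09 (95% interval -0.28 to 0.12, limma adjusted p = 0.537). On the deposited scale that interval runs from a fold of 0.822 to one of 1.09. After median-ratio scaling the estimate was -0.29 and did not pass (limma, adjusted p = 0.168).

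Baat (chromosome 4, 49489422 to 49506557, minus strand), the amino acid transferase, was at 113, 106 and 117 FPKM in the controls and at 135, 123 and 125 FPKM in the knockouts. Its groups did not overlap, but the log2 fold change of 0.19 ± 0.08 did not pass (95% interval 0.01 to 0.37, limma adjusted p = 0.128). It was close to the median shift of all genes, from which it differed by 0.06, and after median-ratio scaling it was -0.02.

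**Figure D2:**
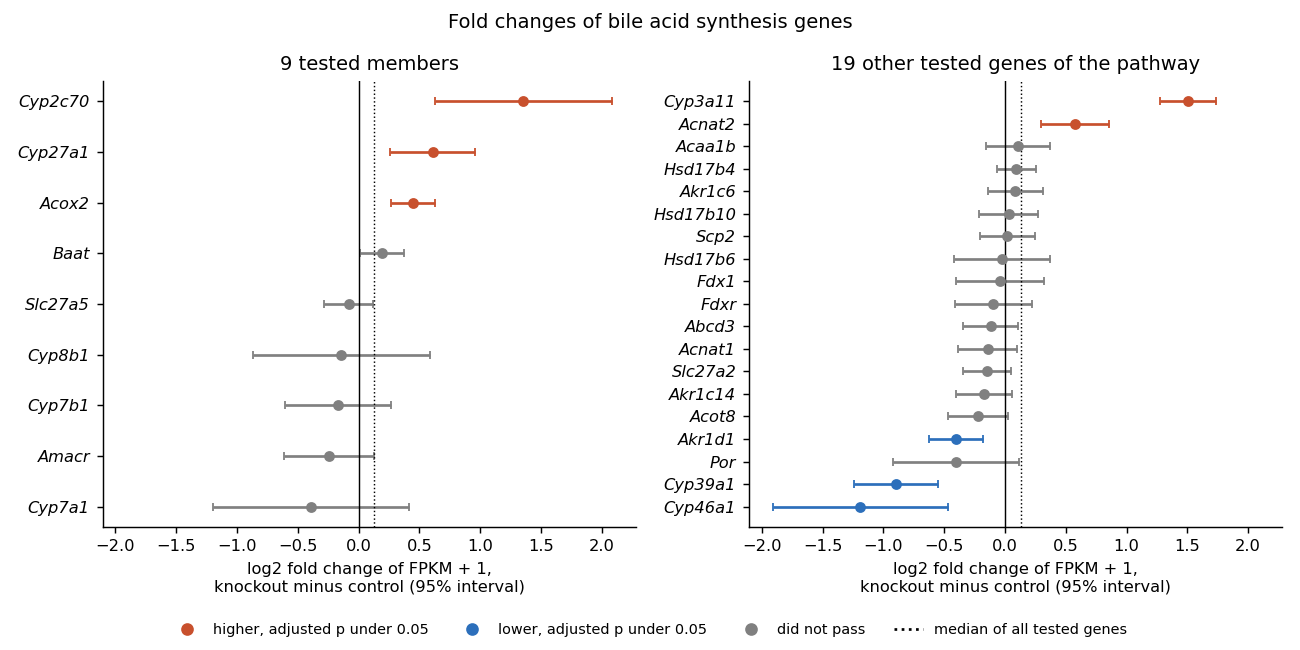
Log2 fold change of FPKM + 1, knockout minus control, with 95% intervals (limma, 3 mice per group) for the 9 tested members (left) and 19 other tested genes of bile acid synthesis (right); the dotted line is the median of all tested genes, 0.13. Cyp2c70, Cyp27a1 and Acox2 are the members that passed, and Cyp7a1 and Cyp8b1 have the widest intervals among those that did not.

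In order of FPKM per length the control livers held Slc27a5 (369 ± 13.2), Cyp8b1 (123 ± 45.5), Cyp27a1 (115 ± 23.1), Baat (112 ± 5.65), Cyp7a1 (70.3 ± 33.1), Acox2 (60.1 ± 1.28), Amacr (46.0 ± 8.45), Cyp2c70 (43.3 ± 20.7) and Cyp7b1 (34.7 ± 3.15), with Hsd3b7 last (means ± SD, n = 3). The ranges of neighbours in that order overlapped for Cyp8b1 and Cyp27a1, Cyp27a1 and Baat, Cyp7a1 and Acox2, Amacr and Cyp2c70, and Cyp2c70 and Cyp7b1. In the knockouts Cyp27a1 (174 ± 14.5 FPKM) stood alone in second place, with a range that did not reach that of Slc27a5 or Baat. Cyp2c70 and Cyp8b1, at means of 106 FPKM each, had overlapping ranges there. As a share of the summed FPKM of the 10 members, Slc27a5 made up 37.9 ± 0.32% in controls and 32.8 ± 2.52% in knockouts. The share of Cyp2c70 was 4.49 ± 2.29% and 9.93 ± 1.35%, and that of Cyp27a1 11.9 ± 2.77% and 16.3 ± 2.04% (SD, n = 3). The summed level itself was 942, 1019 and 959 FPKM in controls 1, 2 and 3 and 1105, 1018 and 1077 FPKM in knockouts 1, 2 and 3, so that control 2 lay within the range of the knockouts.

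Ratios between members within a mouse do not depend on how libraries are scaled, and 6 were computed, each with a two-sided exact permutation test that cannot go below p = 0.1 with 3 against 3 mice. The ratio of Cyp7b1 to Cyp27a1, the later to the earlier enzyme of the alternative route, was 0.249, 0.312 and 0.367 in controls 1, 2 and 3 and 0.137, 0.171 and 0.236 in knockouts 1, 2 and 3. All knockouts lay below all controls, by -0.79 on the log2 scale (exact permutation p = 0.1, 0.3 adjusted over the 6 ratios). The ratio of Baat to Slc27a5 was 0.314, 0.276 and 0.323 in the controls and 0.402, 0.373 and 0.329 in the knockouts, without overlap and with a log2 difference of 0.27 (exact permutation p = 0.1, adjusted p = 0.3). No other ratio separated the groups.

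How far several ratios differed depended on control 1 or control 2. The ratio of Cyp2c70 to Cyp8b1 was 0.957 in control 1 but 0.217 and 0.205 in controls 2 and 3, and it was 0.945, 0.905 and 1.18 in the knockouts. The log2 difference was 1.52 with all mice and 2.25 without control 1 (exact permutation p = 0.3 with all mice, adjusted p = 0.36). The ratio of Cyp27a1 to Cyp7a1 was 3.65 in control 1, 0.961 in control 2 and 1.52 in control 3, against 3.06, 4.80 and 2.97 in the knockouts. Its log2 difference was 1.01 with all mice, 1.54 without control 1 and 0.58 without control 2 (exact permutation p = 0.3 with all mice, adjusted p = 0.36). The ratios of Cyp8b1 and of Cyp7b1 to Cyp7a1 overlapped between the groups, with log2 differences of 0.26 and 0.22 (exact permutation p = 0.3 and 0.7, adjusted p = 0.36 and 0.7). The second of these was 0.61 without control 1 and -0.19 without control 2.

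**Figure D3:**
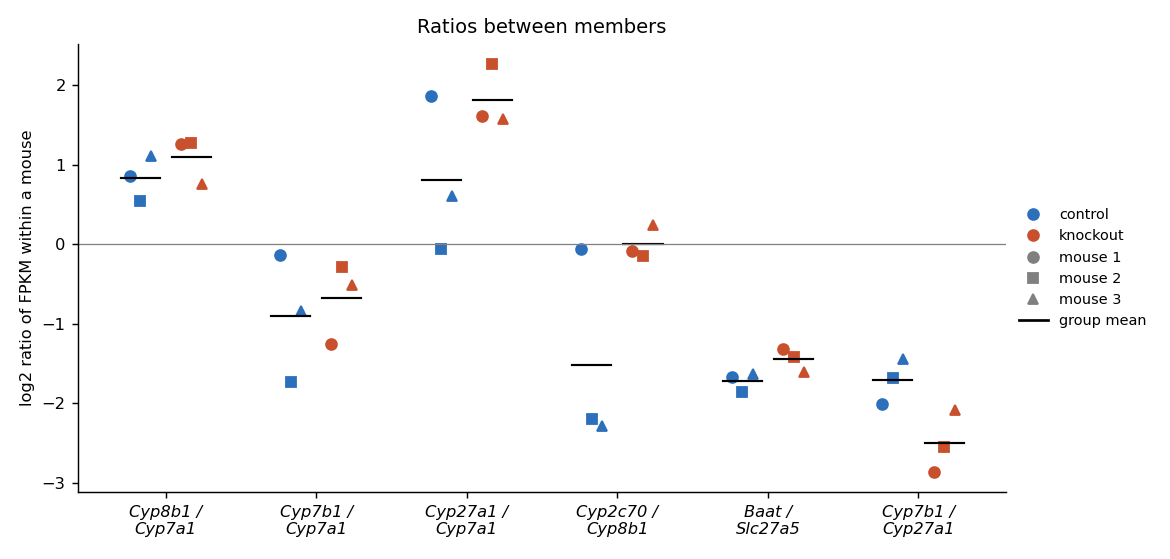
Log2 ratio of the FPKM of 2 members within each mouse (symbols, control in blue and knockout in red), with group means as black lines. The groups are apart for Baat to Slc27a5 and Cyp7b1 to Cyp27a1, and control 1 lies with the knockouts for Cyp2c70 to Cyp8b1 and Cyp27a1 to Cyp7a1.

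Other enzymes of bile acid synthesis and their electron donors were taken from a list of which 19 genes were tested. In this list 2 genes rose and 3 fell (1 and 4 after median-ratio scaling), with a median of -0.10. Cyp3a11, which hydroxylates sterols, bile acids and many drugs, went from 278 ± 28.0 to 790 ± 33.9 FPKM (SD, n = 3), a log2 rise of 1.51 ± 0.10 (limma, adjusted p = 0.00217). Acnat2, a paralog of Baat, rose by 0.57 ± 0.12 (limma, adjusted p = 0.0267). The oxysterol hydroxylase Cyp39a1 (-0.90 ± 0.14) and the cholesterol hydroxylase Cyp46a1 (-1.19 ± 0.30) fell (limma, adjusted p = 0.0154 and 0.042). Akr1d1, the reductase that saturates the sterol ring, fell from 83.2 ± 6.56 to 62.7 ± 5.204 FPKM (log2 -0.40 ± 0.09, limma adjusted p = 0.0345). Cyp3a11 passed with each mouse left out. Akr1d1 did not pass without any of the 6 mice, Cyp46a1 without any but control 3, Acnat2 without any control or knockout 1, and Cyp39a1 without control 3 or knockout 1 (limma, adjusted p up to 0.116).

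A list of bile acid and sterol transporters, which also held the epoxide hydrolase Ephx1, had 16 tested genes. Of these 6, Ephx1 among them, rose and 1 fell (4 and 1 after median-ratio scaling), with a median of 0.34. Over all tested genes 13.9% were called higher and 2.61% lower. Slc10a1, the main uptake carrier for conjugated bile acids on the sinusoidal membrane, was at 322, 421 and 354 FPKM in controls 1, 2 and 3, against 151, 145 and 182 FPKM in knockouts 1, 2 and 3. Its fall of -1.19 ± 0.13 left the groups far apart (limma, adjusted p = 0.00638). The basolateral exporters Abcc3 (0.98 ± 0.10) and Abcc4 (0.81 ± 0.13) and the epoxide hydrolase Ephx1 (0.96 ± 0.12) rose (limma, adjusted p = 0.00638, 0.0146 and 0.00895). Abcc4, at a mean of 0.543 FPKM in controls, reached the filter on low values only through the knockouts (1.73 FPKM). The canalicular bile salt export pump Abcb11 rose by 0.76 ± 0.15, the phospholipid exporter Abcb4 by 0.52 ± 0.07 and Abcg2 by 0.48 ± 0.13 (limma, adjusted p = 0.0229, 0.0112 and 0.0443). Slc10a1, Abcc3, Ephx1 and Abcb4 passed with each mouse left out, but Abcb4 and Abcg2 did not pass after median-ratio scaling (limma, adjusted p from 0.0508 to 0.245). Abcb11 did not pass without control 2 or 3 or knockout 1 or 2, Abcc4, which was tested in 5 of these 6 fits, without control 2 or 3 or knockout 2, and Abcg2 without any mouse but knockout 1 (limma, adjusted p up to 0.134).

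Of 8 tested receptors and repressors of bile acid feedback 1 rose and 1 fell (1 and 2 after median-ratio scaling). Nr1h4, which encodes the bile acid receptor FXR, was at 77.6, 77.3 and 80.0 FPKM in the controls and at 69.0, 65.9 and 62.8 FPKM in the knockouts. The groups did not overlap, and the log2 fold change of -0.25 ± 0.07 fell just short of the threshold (limma, adjusted p = 0.0518). The FXR target Nr0b2, which encodes the repressor SHP, was at 75.9, 48.4 and 44.6 FPKM in the controls and at 43.9, 43.2 and 38.2 FPKM in the knockouts with no overlap (log2 -0.39 ± 0.20, limma adjusted p = 0.207). Control 1, the mouse with the lowest Cyp7a1 and Cyp8b1, had the highest Nr0b2. Knockout 3, with the lowest Nr0b2, had 92.4 FPKM of Cyp8b1, below controls 2 and 3 (152 and 146 FPKM). A link between these genes was not tested. The FGF receptor Fgfr4 (0.07 ± 0.17) and its partner Klb (-0.36 ± 0.16) did not pass (limma, adjusted p = 0.791 and 0.171). Zfp36l1, which encodes an RNA decay protein, rose by 0.68 ± 0.15, and the receptor CAR, Nr1i3, had a fold change of -0.47 ± 0.08 (limma, adjusted p = 0.0298 and 0.0194). Neither passed without control 2, control 3, knockout 1 or knockout 2, and Zfp36l1 also not without control 1 (limma, adjusted p up to 0.0934).

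Of 25 tested transcription factors with a reported role at Cyp7a1 or Cyp8b1, 1 rose and 2 fell (0 and 5 after median-ratio scaling). Hnf4a, whose recognition letters were printed above for Cyp2c70 and Cyp8b1, was at 147, 121 and 151 FPKM in controls 1, 2 and 3, against 229, 200 and 254 FPKM in knockouts 1, 2 and 3. It rose by 0.70 ± 0.12 (limma, adjusted p = 0.0194), but did not pass after median-ratio scaling (limma, adjusted p = 0.0769), with no filter (limma, adjusted p = 0.0508), or without control 2, control 3 or knockout 1 (limma, adjusted p up to 0.0616). The clock output factor Tef (-0.61 ± 0.07) fell, and it passed with each mouse left out (limma, adjusted p = 0.00638). Nr5a2, which encodes LRH-1, was at -0.16 ± 0.11 and the oxysterol receptor Nr1h3 at -0.15 ± 0.10 (limma, adjusted p = 0.34 and 0.317).

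Of 7 tested genes of bile acid sulfation and glucuronidation 0 rose and 2 fell. Sult2a8, a sulfotransferase of male mouse liver, went from 281 ± 6.74 to 109 ± 40.2 FPKM (SD, n = 3), or -1.43 ± 0.26 on the log2 scale (limma, adjusted p = 0.0212). Sult2a7, at 3.29 ± 0.78 FPKM in controls and 0.732 ± 0.02 FPKM in knockouts, had a fold change of -1.29 ± 0.14 (limma, adjusted p = 0.00638). It reached the filter on low values only through the controls. Sult2a8 and Sult2a7 are close paralogs, so the division of fragments between them is uncertain. Sult2a8 did not pass without any 1 control or without knockout 2 (limma, adjusted p up to 0.0722).

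Hepatic zonation and sex bias were looked at as context, since Cyp7a1 is a pericentral gene and Cyp7b1 is higher in male liver. Of 13 pericentral genes 2 were higher and 1 lower, and of 14 periportal genes 0 were higher and 5 lower, with medians of 0.09 and -0.33. After median-ratio scaling 0 pericentral genes were higher and 1 lower, and 0 periportal genes were higher and 7 lower. The count of periportal genes called lower was 0 with no filter and without control 1, control 2 or knockout 1. It was 1 without control 3, 2 without knockout 2 and 3 without knockout 3. Of the pericentral genes 0 were called without control 3, knockout 1 or knockout 2, and 1 was higher and 0 lower without control 1 or control 2 and with no filter. Without knockout 3, 1 was higher and 1 lower. Of 17 male-biased genes 3 were higher and 1 lower, and of 6 tested female-biased genes 0 were higher and 3 lower. Examples were Mup20 (1.93 ± 0.26), Selenbp2 (1.79 ± 0.17), Hsd3b5 (-1.50 ± 0.31), Cyp17a1 (-2.02 ± 0.22) and Cyp2b9 (-1.58 ± 0.20), with limma adjusted p from 0.00564 to 0.028. Selenbp2, at a mean of 0.772 FPKM in controls, reached the filter on low values only through the knockouts (5.24 FPKM). Hsd3b5, at 0.42 FPKM in knockouts, reached it only through the controls (3.19 FPKM). Hsd3b5 did not pass in 5 of 6 fits with 1 mouse left out, whereas the other 4 did in all.

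The genes most like Cyp2c70 over the 6 mice, by Pearson's r of log2 (FPKM + 1), were Cdc34 (r = 0.998), Gcc1 (r = 0.996) and Ypel2 (r = 0.993). Like Cyp2c70, Cdc34 was higher in control 1 (23.9 FPKM) than in controls 2 and 3 (18.96 and 18.58 FPKM) and highest in the knockouts (27.8, 25.3 and 27.6 FPKM). For Cyp27a1 they were Gbe1 (r = 0.998), Prkaa1 (r = 0.998) and Tbc1d20 (r = 0.996). With 6 mice in 2 groups such values describe the pattern only, and they were picked as the highest of 10996 genes.

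**Figure D4:**
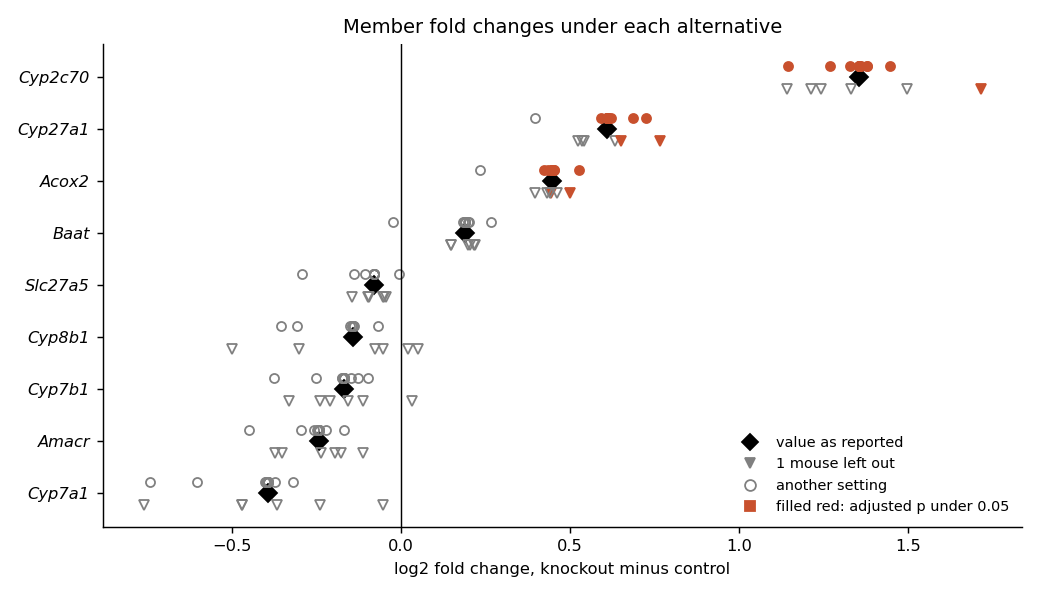
Log2 fold change of each tested member under every setting: black diamonds the value as reported, triangles with 1 mouse left out, circles other settings, red where the adjusted p was under 0.05. Cyp2c70, Cyp27a1 and Acox2 stay above 0 throughout but not always past the threshold, while Cyp8b1, Cyp7b1 and Baat cross 0 under some settings.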

How the data were processed

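The authors deposited 1 table of FPKM per gene and mouse. The submitters' processing notes name HISAT2 2.0.4, Bowtie2 2.2.6, StringTie 1.3.0 and GRCm38 but give them no roles, and no source used here tells how strand was handled. Columns were matched to mice by title, and 0 columns were left out. The members and gene lists were chosen with earlier results of these data known. The test was limma (3.58.1, under R 4.3.3; eBayes with trend) on log2(FPKM + 1), with all 6 mice and no covariate. The procedure was tested on simulated data. P-values reflect the spread between 3 animals per group, and in limma each gene's variance is also drawn toward that of tested genes of similar level. Named genes were the members, Acsm3, 7 fixed regulators, up to 4 called genes of largest change per list (not all are printed, and 1 is not reported here) and the 3 most alike; Akr1d1, Abcb11, Abcb4 and Abcg2 were chosen after their values were seen. Fragment totals were estimated from GENCODE M21 exon lengths (of values below 20 fragments, 99.6% to 99.7% came within 0.1 of whole), but recovered fragments summed to 102.9% to 103.4% of them. Alternatives were other pseudocounts, filters, scalings, limma options, a replicate block, leaving out each mouse and, added after the data were seen, limma voom on recovered fragments. Python 3.11.15 was used for tables.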

Additional observations from a re-analysis of the deposited data

How the results depend on the processing

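Of the 10 members, Slc27a5, Cyp7a1 and Amacr kept their direction and stayed short of the threshold under all 18 alternatives, and no member was called lower under any. Of these 3 Amacr came nearest to it, after median-ratio scaling (-0.45, limma adjusted p = 0.0529). The count of members called higher was 3 under every alternative that kept all 6 mice except no filter (1) and median-ratio scaling (1), and it ran from 0 to 3 with 1 mouse left out. Estimates that changed sign were those of Cyp7b1 (0.031 without knockout 1), Cyp8b1 (0.051 without control 2 and 0.021 without control 3) and Baat (-0.023 after median-ratio scaling), none of them called. With 1 mouse left out, the fold change of Cyp7b1 ran from -0.33 to 0.031, that of Cyp8b1 from -0.50 to 0.051, and the log2 ratio of Cyp7b1 to Cyp7a1 from -0.19 to 0.61. The cause was not tested.

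Over all genes 1532 were called higher and 287 lower. The count of genes called higher was 544 with no filter, 848 with a filter at 5 FPKM, 725 with median-ratio scaling, 2582 when libraries were brought to a common sum, 752 with quantile normalization and 2742 with array weights. The count called lower was 106 with no filter, 919 with median-ratio scaling, 603 with quantile normalization and 537 with array weights. With 1 mouse left out, 226 to 1968 genes were called higher and 55 to 282 lower.

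The replicate numbers in the titles are not said to pair mice. Same-numbered mice deviated together with correlations over genes of 0.111, 0.0918 and 0.187, and each mouse correlated best with its own number. Control 2 with knockout 1 reached 0.0733. With 3 mice per group such an order can also arise without pairing, and pairing was not tested. With a replicate block 3 members were called higher and 0 lower, and 1672 genes were called higher and 346 lower over all. With the block the sign-flip test of the ratios gave exact p from 0.25 to 0.75, and its smallest possible p with 3 pairs is 0.25.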
